A study of Mus musculus with 82 samples.

Results

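The 10 heat shock genes described here act in the cytosol and the mitochondrion, and their levels were compared across mouse fibroblasts and hepatocytes exposed to activators of AMP-activated protein kinase (AMPK). The genes were Hspa1a, Hspa1b, Hspa8, Hsph1, Dnajb1, Hspb1, Hsp90aa1, Hspd1, Hspe1 and Bag3. All probe sets annotated to these single symbols were taken, which gave 23 of the 45037 probe sets tested, and each of the 10 genes had at least 1.

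The cells were C57BL/6 embryonic fibroblasts (MEFs) and primary hepatocytes that were either control (WT) or AMPK α1-/-/α2-/-, without both catalytic subunits of the kinase (dKO). Each was exposed for 4 h to DMSO vehicle, to 991 or to AICAR. The dose of 991 was 10 µM in MEFs and 3 µM in hepatocytes, and that of AICAR was 2 mM in MEFs and 300 µM in hepatocytes, so no dose was matched between compounds or cell types. The hepatocytes, isolated by collagenase perfusion, were kept overnight in medium with dexamethasone, a glucocorticoid, in both genotypes and all treatments. The 23 MEF arrays are technical replicates, 4 per group and 3 for WT cells with 991, and no separate cell lines are named. Their p-values therefore cover technical spread alone, and a genotype cannot be told apart from a line. For hepatocytes, 2 preparations of each genotype were split over the treatments, and 59 arrays were run, 5 for each split sample and 4 for dKO preparation 1 with vehicle. Arrays of 1 split sample were averaged, so that n = 2 preparations in each hepatocyte group.

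Heat shock proteins are chaperones that bind unfolded chains and help them fold, and several of their genes are switched on by heat shock factor 1 when unfolded protein builds up. HSP70 proteins do this in cycles of ATP hydrolysis, which J-domain proteins start and nucleotide exchange factors reset, while HSP90 acts later on kinases and hormone receptors. Small heat shock proteins hold unfolded chains without ATP, and inside mitochondria a chaperonin of Hspd1 with its lid Hspe1 folds imported proteins. In the liver, dexamethasone acts through the glucocorticoid receptor, a classic client of HSP90.

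The control regions of the inducible members are shown because the largest difference among the members was that of Hspa1b, whose near copy Hspa1a lies beside it. Both lie on chromosome 17 and encode nearly the same HSP70. RefSeq promoter windows on GRCm38.p6, 250 bases before and 50 after each start, held 11 entries for 8 of the 10 members, and Hspa8 and Hsp90aa1 had none. They were searched for GAANNTTC and TTCNNGAA, paired units of the heat shock element, each of which reads the same on both strands, with overlapping matches counted. Matches were found for 7 of the 8 members, and Dnajb1 had none in its 2 entries. Of all 32851 windows in the table, 15.1% held a match to either motif, 7.9% to GAANNTTC and 8.5% to TTCNNGAA. The 30 bases around the matches upstream of the start follow, with the matched letters in capitals, each on the strand of its gene and numbered from the base before the start as -1.
Hspa1b, chr17:34959324-34959353, minus strand, -115 to -86: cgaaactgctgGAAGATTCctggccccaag
Hspa1a, chr17:34972242-34972271, minus strand, -115 to -86: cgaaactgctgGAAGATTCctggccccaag
Hspb1, chr5:135887801-135887830, plus strand, -118 to -89: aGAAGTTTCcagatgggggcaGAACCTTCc
Hsph1, chr5:149636351-149636380, minus strand, -44 to -15 of its first entry: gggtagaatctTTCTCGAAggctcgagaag
Hspe1, chr1:55088053-55088082, plus strand, -95 to -66: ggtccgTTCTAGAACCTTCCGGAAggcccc
Hspd1, chr1:55088053-55088082, minus strand, -150 to -121: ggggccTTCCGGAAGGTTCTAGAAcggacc
The last 2 lines are the same stretch read on opposite strands, since Hspe1 and Hspd1 start beside each other and point apart, and 1 of the 2 Hspd1 entries held it. Bag3 had its only match at position 43 after the start. A match is a description of letters and not a site of binding.

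The 250 bases before the start of Hspa1b are shown in full because this gene fell furthest of the members in WT hepatocytes. They lie at chr17:34959239-34959488 on the minus strand, and the single match is in capitals.
Hspa1b: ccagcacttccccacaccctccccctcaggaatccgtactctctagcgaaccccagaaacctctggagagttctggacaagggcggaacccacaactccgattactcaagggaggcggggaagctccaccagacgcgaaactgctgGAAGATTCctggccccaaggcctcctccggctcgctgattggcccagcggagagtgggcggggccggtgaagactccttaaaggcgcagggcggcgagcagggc
The same stretch of Hspa1a differed from it at 3 of 250 bases. Probes for 1 of these genes may bind the other's RNA, so the labels Hspa1a and Hspa1b are uncertain throughout.

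Values are log2 intensities, so a difference of 1 is a 2-fold change. A probe set was called at a Benjamini-Hochberg adjusted p under 0.05 over all 45037 probe sets in limma, with no fold limit. Array medians were 6.162 to 6.248 in MEFs and 5.881 to 6.081 in hepatocytes. The hepatocytes were clearly marked, with 9 of 9 measured hepatocyte markers above the array median (albumin at 14.76 in both genotypes with vehicle), and Kupffer cell markers averaged 8.60 to 9.04 in WT vehicle preparations and 8.15 to 8.42 in dKO ones. In MEFs 6 of 10 fibroblast markers were above the median, vimentin among them at 14.08 in WT and 13.92 in dKO cells with vehicle, while Thy1 was at 6.29 and 4.88. In hepatocytes 6 of 10 were above it as well, so this count does not set the cell types apart. The markers averaged 7.98 to 9.37 in MEF samples and 6.98 to 7.27 in hepatocyte ones. The probe set of Prkaa1, the gene of AMPKα1, was at 4.81 to 5.93 in WT and 4.21 to 4.83 in dKO hepatocytes, and at 7.70 to 8.53 and 7.90 to 8.55 in MEFs (adjusted p = 0.173 and 0.54 with vehicle). Of 3 probe sets of Prkaa2, the gene of AMPKα2, the brighter ones were at 9.52 to 9.85 and 9.32 to 9.81 in WT and at 9.37 to 9.75 and 9.37 to 9.72 in dKO hepatocytes (adjusted p = 0.935 and 0.928), the dim one did not pass either (adjusted p = 0.932), and in MEFs the same brighter ones were lower in dKO cells (-0.32 and -0.35). No source used here says whether these probe sets lie in the deleted parts, so they do not check the genotype labels. Since these are bulk samples, fewer cells of a type and less RNA per cell cannot be told apart.

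With vehicle, the members were among the brighter probe sets in both cell types, apart from a few dim ones. In WT MEFs 18 of the 23 were above the 90th percentile of all probe sets, from Hspa1b 1427126_at at the 91.6th to Hspa8 1455789_x_at at the 99.8th. Of the 5 Hsp90aa1 probe sets, 3 stood at the 99.2th to 99.6th percentile in WT MEFs, while 1433251_at and 1441827_x_at stood at the 49.8th and 30.4th percentiles there and at the 48.9th and 27.9th in WT hepatocytes. The sources used here do not say if both cell types were normalized jointly, so levels are set side by side without a test. The inducible HSP70 probe sets ranked lower in WT hepatocytes (Hspa1b 1427126_at at the 86.7th percentile, Hspa1a 1452388_at at the 66.9th) than in WT MEFs (percentiles 91.6 and 74.1). Hspb1 1425964_x_at ranked higher in WT hepatocytes, at the 99.4th against the 97.4th percentile.

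In WT hepatocytes with 991, probe sets of Hspa1b, Hspa8, Hsph1 and Dnajb1 fell. Of the 23 probe sets, 9 were called lower and 0 higher, against 1.58% and 2.51% of all probe sets. The members' median log2 difference was -0.23, beside 0.04 over all probe sets. The 9 were the 3 of Hspa1b, 3 of Hspa8, both of Hsph1 and 1 of Dnajb1. At 18 of the 23 both WT preparations were lower with 991, and none was higher in both.

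**Figure D1:**
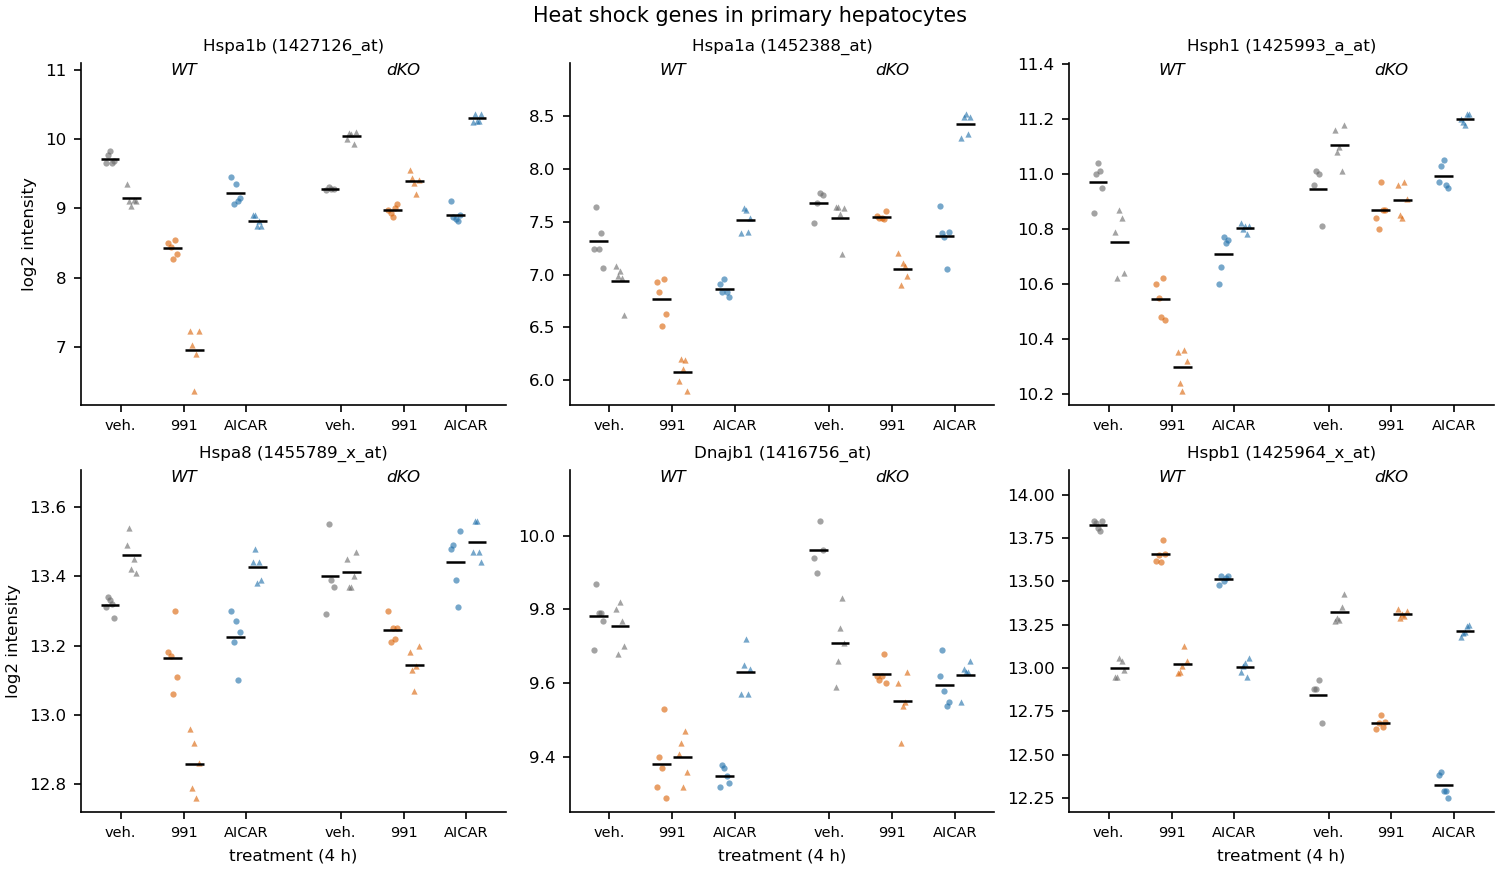
Log2 intensity of 6 probe sets in primary hepatocytes by genotype and treatment, with 1 point per array (circles preparation 1, triangles preparation 2) and a black line at each preparation's mean. Each panel has its own axis, which does not start at 0. Hspa1b in WT cells with 991 lies at 6.36 to 8.55, below all vehicle arrays.

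Hspa1b, the stress-inducible HSP70, moved furthest. On probe set 1427126_at the WT preparations were at 9.72 and 9.15 with vehicle and at 8.42 and 6.95 with 991. All 10 arrays with 991 (6.36 to 8.55, median 7.75) lay below all 10 vehicle arrays (9.03 to 9.83, median 9.50). The difference was -1.30 in preparation 1 and -2.20 in preparation 2, so that the level with 991 differed more between preparations than the level with vehicle did.

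The fitted difference was -1.75 ± 0.23 (SE, n = 2 preparations, 95% interval -2.27 to -1.23, adjusted p = 0.0027 in limma), a 3.36-fold lower level. The other Hspa1b probe sets gave -1.72 ± 0.24 (1427127_x_at, adjusted p = 0.00335) and -1.59 ± 0.25 (1452318_a_at, adjusted p = 0.00594). Ranked from the most negative of 45037 probe sets, these differences stood at 2, 3 and 4. The 3 probe sets come from 1 gene and are not independent of each other.

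These calls rested on the block for preparation, and the size of the fall of Hspa1b rested more on WT preparation 2. Hspa1b 1427126_at was at -1.30 without WT preparation 2 and at -2.20 without WT preparation 1. Such fits leave 1 sample in each WT group and take their spread from dKO cells alone, so their calls are not given. Without the block for preparation 0 members were called, at an adjusted p of 0.185 for this probe set. The difference of -1.75 cannot change in that fit, since each preparation was in every treatment.

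Hspa1a 1452388_at was at 7.31 and 6.94 in WT preparations with vehicle and at 6.77 and 6.08 with 991. Both preparations were lower with 991, but the arrays of the groups overlapped (5.90 to 6.96 with 991, 6.62 to 7.64 with vehicle). The difference of -0.70 ± 0.33 did not pass the test (95% interval -1.43 to 0.03, adjusted p = 0.271).

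Hsph1 encodes HSP110, which acts on HSP70 as a nucleotide exchange factor. Its probe set 1425993_a_at was at 10.97 and 10.75 with vehicle and 10.54 and 10.30 with 991 in WT preparations, and it fell by 0.44 on the log2 scale (adjusted p = 0.00885). Probe set 1423566_a_at went from 9.44 and 9.31 to 9.0 and 8.72, a difference of -0.52 ± 0.07 (adjusted p = 0.00366). On both, all arrays with 991 lay below all vehicle arrays, and the preparations gave differences near each other (-0.43 and -0.46 on 1425993_a_at).

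Hspa8, the constitutive HSP70 that also uncoats clathrin vesicles, fell on 3 of its 4 probe sets. On 1455789_x_at, its brightest, WT preparations were at 13.32 and 13.46 with vehicle and at 13.17 and 12.86 with 991, a difference of -0.38 ± 0.09 (adjusted p = 0.0459). The differences were -0.33 ± 0.06 on 1420623_x_at (13.41 and 13.46 with vehicle, 13.21 and 13.01 with 991, adjusted p = 0.0116) and -0.71 ± 0.15 on 1420622_a_at (11.33 and 11.81, then 11.09 and 10.63, adjusted p = 0.0248). Preparation 2 fell further on each of the 3, and the difference on 1455789_x_at was -0.15 in preparation 1 and -0.61 in preparation 2.

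Dnajb1 is the J-domain partner that starts the HSP70 cycle in the stress response. Its probe set 1416756_at was at 9.78 and 9.76 with vehicle and at 9.38 and 9.4 with 991 in WT preparations, and it fell by 0.38 (adjusted p = 0.0276). Probe set 1416755_at, at 10.15 and 10.05 and then 9.74 and 9.60, differed by -0.43 ± 0.14 and did not pass the test (adjusted p = 0.11). Bag3, the exchange factor that feeds HSP70 clients to autophagy, was at 10.30 and 10.09 with vehicle and 10.14 and 9.79 with 991, a difference of -0.23 ± 0.07 that did not pass it either (adjusted p = 0.0976).

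The remaining members differed little with 991 in WT hepatocytes. The 5 probe sets of Hsp90aa1, the inducible cytosolic HSP90, differed by -0.11 to 0.03, and the 2 of Hspb1, the small heat shock protein HSP27, by -0.07 each. Hspd1 differed by 0.01 ± 0.03 (95% interval -0.05 to 0.07), at 13.27 and 13.31 with vehicle and 13.27 and 13.34 with 991. Hspe1 1450668_s_at differed by -0.09 ± 0.04 (adjusted p = 0.205). Kupffer markers averaged 8.72 to 8.96 in the WT preparations with 991 and 8.60 to 9.04 with vehicle, so these ranges overlapped.

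In dKO hepatocytes 991 left no member past the test. Of the 23, 0 were called higher and 0 lower in limma, against 0.0% and 0.00666% of all probe sets. At an unadjusted p under 0.05 were 3 of the 23, beside 1797 of all 45037 probe sets. Hspa1b 1427126_at was at 9.28 and 10.04 with vehicle and at 8.97 and 9.4 with 991, a difference of -0.48 ± 0.23 (95% interval -1.0 to 0.04). All 23 differences were below 0, with a median of -0.12 beside 0.01 over all probe sets, and 18 were lower in both preparations. Hsph1 1425993_a_at differed by -0.14 ± 0.08 and Hspa8 1455789_x_at by -0.21 ± 0.09.

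The difference between the genotypes in the 991 effect was tested as an interaction, in which a negative value is a larger fall in WT cells. No member was called in limma, against 0.158% of all probe sets called higher and 0.0311% lower. At an unadjusted p under 0.05 were 6 of the 23, beside 3178 of all 45037 probe sets. For Hspa1b 1427126_at the interaction was -1.27 ± 0.33 (95% interval -2.0 to -0.54, adjusted p = 0.273), and the other probe sets gave -1.29 ± 0.34 and -1.15 ± 0.35. Hsph1 gave -0.36 ± 0.11 (1423566_a_at, adjusted p = 0.348) and -0.31 ± 0.11 (1425993_a_at, adjusted p = 0.525). These data do not show at the threshold used that the fall of Hspa1b depended on genotype, although its interval lay below 0 before adjustment. Fits without 1 WT preparation hold no spread between WT preparations, so they do not settle this.

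With AICAR in WT hepatocytes 1 member probe set was called higher and 5 lower, against 8.39% and 9.86% of all probe sets. The 5 lower ones were Dnajb1 1416756_at, Hsph1 1423566_a_at, 2 of Hsp90aa1 and Hspe1 1450668_s_at, with differences of -0.28 to -0.10. Hspa1b was not among them, at 9.23 and 8.82 with AICAR on 1427126_at, a difference of -0.41 ± 0.23 from vehicle (95% interval -0.92 to 0.11, adjusted p = 0.268). The doses of 991 and AICAR were unmatched, and the difference between the compounds was not tested. Endothelial markers averaged 6.76 to 6.97 in WT preparations with AICAR and 6.49 to 6.67 with vehicle, hepatocyte markers 13.77 to 13.81 and 13.63 to 13.70, Kupffer markers 8.92 to 9.10 and 8.60 to 9.04, and cholangiocyte markers 6.06 to 6.17 and 6.26 to 6.29. The part of these shifts in the members' differences was not tested.

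The largest of these 5 falls was that of Dnajb1 1416756_at, at 9.35 and 9.63 with AICAR against 9.78 and 9.76 with vehicle (-0.28 ± 0.08, adjusted p = 0.0365). Hsph1 1423566_a_at was at 9.09 and 9.16 (-0.25 ± 0.07, adjusted p = 0.0373). Hspe1 1450668_s_at was at 12.56 and 12.73 against 12.71 and 12.86 (-0.14 ± 0.04, adjusted p = 0.0278), and Hsp90aa1 1426645_at at 12.67 and 12.76 against 12.82 and 12.85 (-0.12 ± 0.03, adjusted p = 0.035). Without the block for preparation none of the 5 was called. Dnajb1 1416756_at differed by -0.43 in WT preparation 1 and by -0.12 in WT preparation 2.

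**Figure D2:**
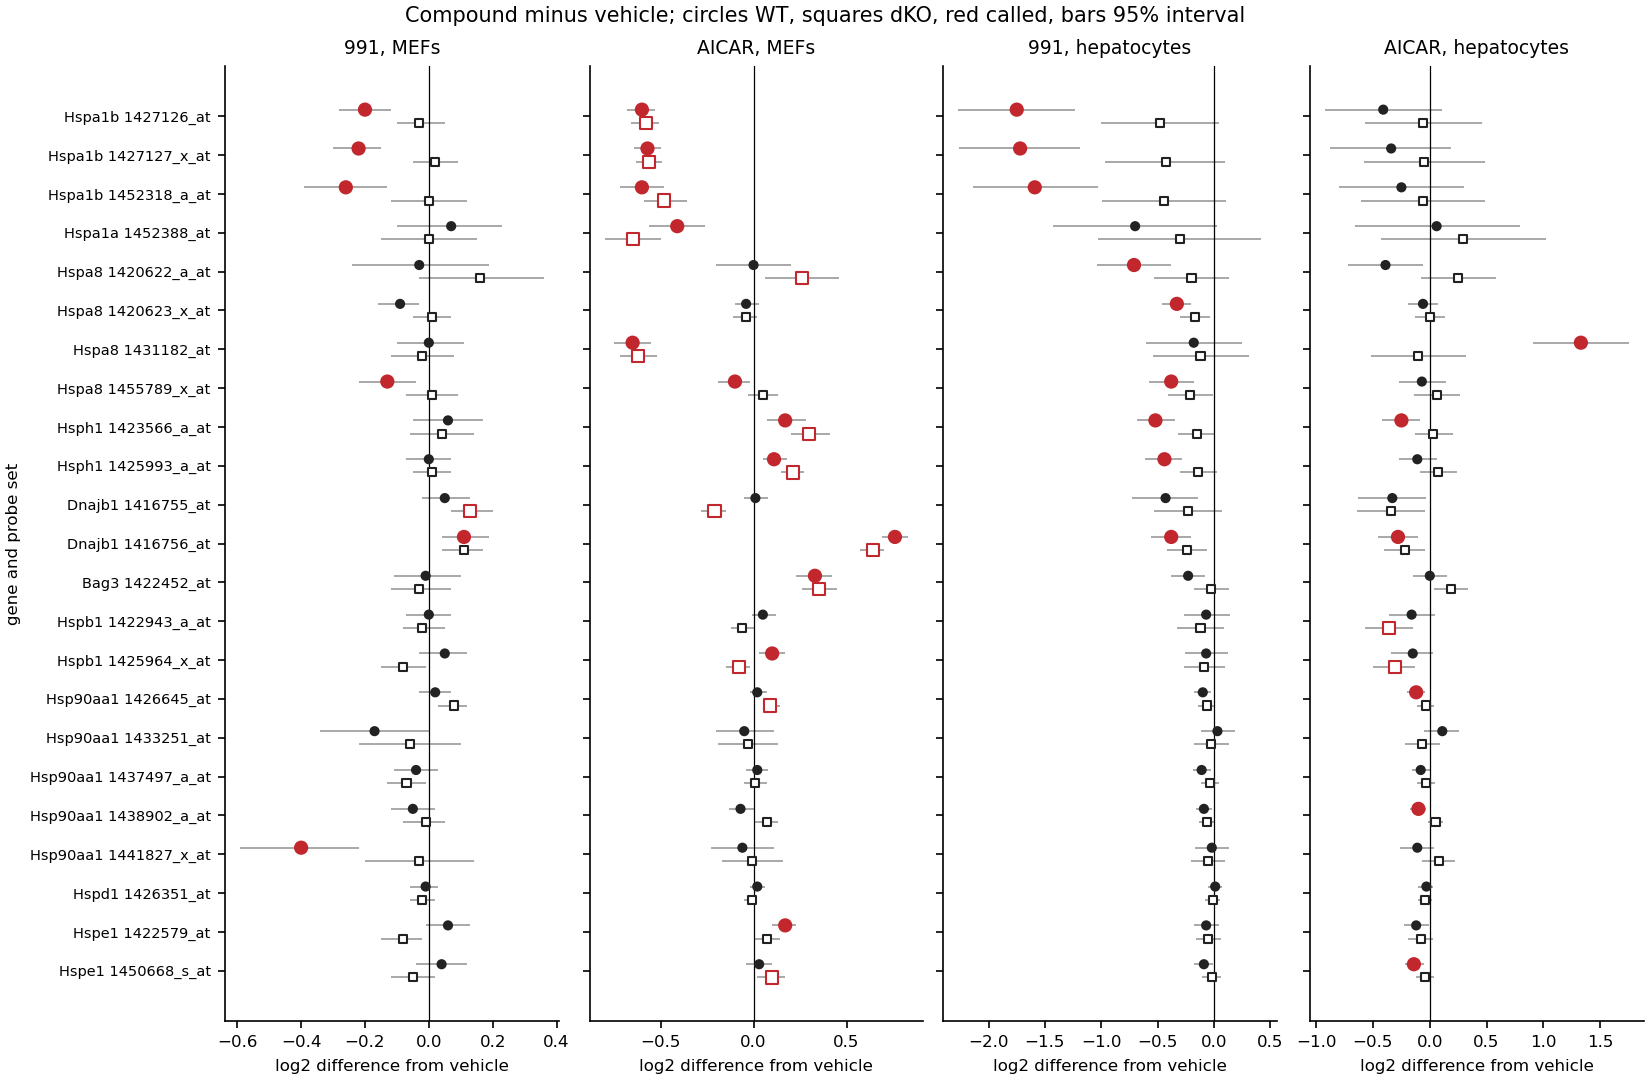
Log2 difference between compound and vehicle for the 23 probe sets (rows) in 4 combinations of compound and cell type, each panel with its own axis. Circles are WT, squares dKO, red marks a call and bars are 95% intervals. The 3 Hspa1b probe sets lie at -1.75 to -1.59 with 991 in WT hepatocytes.

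The 1 probe set that rose with AICAR in WT hepatocytes was Hspa8 1431182_at. It was at 7.39 and 7.38 with vehicle and at 8.32 and 9.11 with AICAR, and all 10 arrays with AICAR (8.19 to 9.22) lay above all 10 with vehicle (7.31 to 7.46). The rise was 1.33 ± 0.19 (95% interval 0.91 to 1.75, adjusted p = 0.000652), 2.52-fold, with 0.93 in preparation 1 and 1.74 in preparation 2. The fit without the block kept the call (adjusted p = 0.00781 in limma). Fits without 1 WT preparation leave 1 sample in each WT group, so their calls are not given.

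In dKO hepatocytes the same probe set was at 7.88 and 7.48 with vehicle and 7.52 and 7.64 with AICAR, a difference of -0.10 ± 0.19. The interaction was 1.43 ± 0.27 (95% interval 0.84 to 2.03, adjusted p = 0.0155), the only one called among the members, 1 higher and 0 lower against 1.96% and 0.564% of all probe sets. This call was lost without the block (1.43, adjusted p = 0.0982 in limma). The interaction was 1.025 without WT preparation 2 and 1.84 without WT preparation 1. It was 1.17 without dKO preparation 1 and 1.69 without dKO preparation 2. Each of these fits leaves 1 sample per group in that genotype, so their calls are not given.

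The other 3 Hspa8 probe sets did not share this rise. With AICAR in WT hepatocytes they differed by -0.39 ± 0.15 (1420622_a_at), -0.06 ± 0.06 (1420623_x_at) and -0.07 ± 0.09 (1455789_x_at), and none passed the test. Probe set 1431182_at was also the dimmest of the 4, at 7.38 in WT hepatocytes with vehicle, where 1455789_x_at was at 13.39. In MEFs it fell with AICAR, as given below, so it went in opposite directions in the cell types. Which transcript it reads was not tested, and its values are given for the probe set and not for Hspa8 as a whole.

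**Figure D3:**
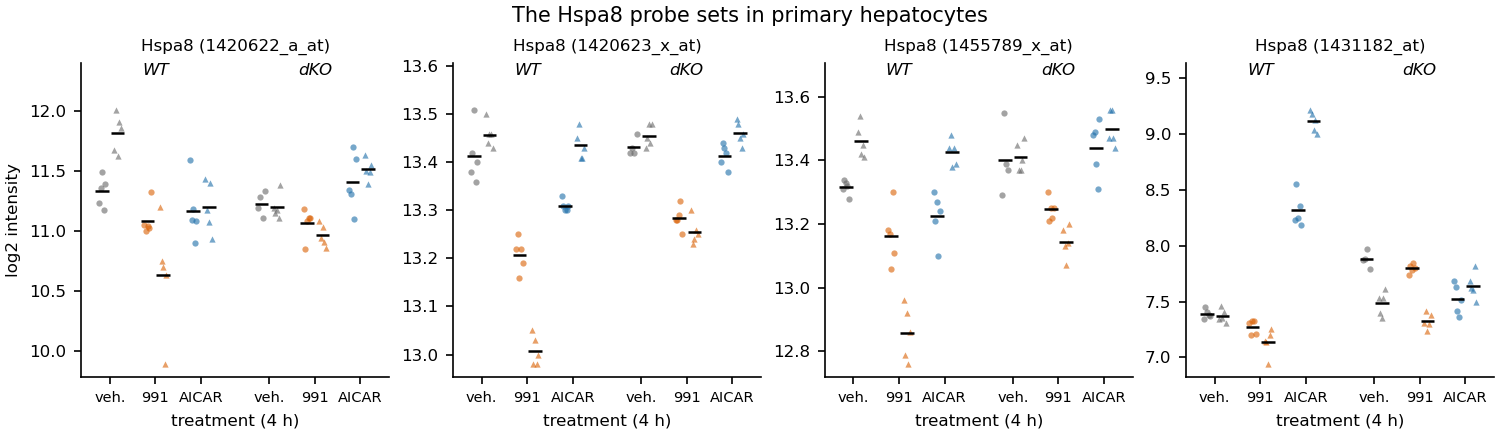
Log2 intensity of the 4 Hspa8 probe sets in primary hepatocytes by genotype and treatment, with 1 point per array (circles preparation 1, triangles preparation 2) and a black line at each preparation's mean. Each panel has its own axis. With AICAR in WT cells 1431182_at lies at 8.19 to 9.22, and the other 3 show no such rise.

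Members were called no more often than all probe sets with AICAR in dKO hepatocytes. Of the 23 probe sets, 0 were called higher and 2 lower, both of Hspb1, against 9.97% and 10.8% of all probe sets. Probe set 1425964_x_at was at 12.84 and 13.33 with vehicle and 12.32 and 13.22 with AICAR, a difference of -0.31 ± 0.08 (adjusted p = 0.0214), and 1422943_a_at differed by -0.36 ± 0.09 (adjusted p = 0.0194). The preparations differed from each other by more than the treatment did. In dKO preparation 1 the differences were -0.52 and -0.59, and in dKO preparation 2 they were -0.11 and -0.13. Kupffer markers averaged 8.47 to 8.72 in dKO preparations with AICAR and 8.15 to 8.42 with vehicle, endothelial markers 6.87 to 7.04 and 6.57 to 6.79, and hepatocyte markers 13.82 to 13.83 and 13.69 to 13.70, and their part in the fall of Hspb1 was not tested. In WT cells the differences were -0.15 ± 0.08 and -0.16 ± 0.09, and the interactions were not called (0.16 ± 0.12, adjusted p = 0.668, on 1425964_x_at).

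Hspa1a and Hspa1b split by preparation with AICAR in dKO hepatocytes. On Hspa1b 1427126_at preparation 1 went from 9.28 to 8.91 and preparation 2 from 10.04 to 10.30. Hspa1a 1452388_at went from 7.67 to 7.37 and from 7.54 to 8.42. The fitted differences were -0.06 ± 0.23 and 0.29 ± 0.33, so no direction was shown.

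With vehicle, dKO and WT hepatocytes could not be told apart at any member. Of the 23, 0 were called in either direction in limma (1 at an unadjusted p under 0.05), and 0.0% of all probe sets were called higher and 0.0% lower (2454 at an unadjusted p under 0.05). The fit had 2 residual degrees of freedom. Hspa1a differed by 0.48 ± 0.14 (adjusted p = 0.889), Hspa1b 1427126_at by 0.23 ± 0.28 and Hspb1 1425964_x_at by -0.33 ± 0.28. Hspb1 1425964_x_at was at 13.83 and 13.00 in the WT preparations and at 12.84 and 13.33 in the dKO ones.

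Across the 6 hepatocyte groups Hspa1b 1427126_at was highest in dKO cells with vehicle (9.66 ± 0.54, SD, n = 2), followed by dKO with AICAR (9.61 ± 0.99), WT with vehicle (9.43 ± 0.40), dKO with 991 (9.18 ± 0.30), WT with AICAR (9.03 ± 0.28) and WT with 991 (7.68 ± 1.04). These SDs are between preparations and leave out that treatments were paired within a preparation. In pairs, 991 differed from vehicle by -0.32 and -0.65 in dKO cells. AICAR differed from it by -0.49 and -0.32 in WT and by -0.38 and 0.26 in dKO cells. As given above, Hspa1b was not called in these comparisons. WT with 991 was also the lowest group for Hspa1a (6.42 ± 0.49), Hsph1 1425993_a_at (10.42 ± 0.17), Hspa8 1455789_x_at (13.01 ± 0.22) and Dnajb1 1416756_at (9.39 ± 0.01).

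In MEFs the probe sets of Hspa1b and Hspa1a fell with AICAR in both genotypes, while those of Bag3, Hsph1 and 1 of the 2 of Dnajb1 rose. In WT MEFs 6 member probe sets were called higher and 6 lower with AICAR, against 18.0% and 13.8% of all probe sets, and in dKO MEFs 7 and 7, against 20.1% and 17.7%. Most members were bright, and more calls fell on bright probe sets. Of 22519 probe sets at or above the median level, fitted alone, 7491 were called higher and 4739 lower in WT MEFs. In dKO MEFs these counts were 8039 and 5743. The members' median differences were 0.01 and -0.01, near those of all probe sets (-0.01 and -0.01).

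Hspa1b 1427126_at was at 10.56, 10.58, 10.43 and 10.47 in WT MEFs with vehicle and at 9.95, 9.88, 9.90 and 9.89 with AICAR. In dKO MEFs it was at 10.16, 10.09, 10.05 and 10.14 with vehicle and at 9.59, 9.54, 9.51 and 9.49 with AICAR. In each genotype the arrays with AICAR lay below all arrays with vehicle. The differences were -0.60 ± 0.04 in WT (1.52-fold lower, adjusted p = 2.74e-14) and -0.58 ± 0.04 in dKO (adjusted p = 3.06e-14), and their interaction was -0.02 ± 0.05 (95% interval -0.13 to 0.08).

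With AICAR the other Hspa1b probe sets fell by 0.57 and fell by 0.60 in WT MEFs, and in dKO MEFs they differed by -0.56 and -0.48. Hspa1a 1452388_at was at 8.35, 8.35, 8.15 and 8.19 in WT MEFs with vehicle and at 7.85, 7.75, 7.83 and 7.95 with AICAR, a difference of -0.41 ± 0.07 (adjusted p = 3.71e-05). In dKO MEFs it was at 8.77, 8.55, 8.65 and 8.49 and then at 7.98, 7.88, 8.11 and 7.88, a difference of -0.65 ± 0.07 (adjusted p = 1.12e-08). The groups did not overlap in either genotype, and the interaction was 0.24 ± 0.10 (adjusted p = 0.173).

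The 2 Dnajb1 probe sets gave different readings. On 1416756_at it rose with AICAR from 10.67, 10.72, 10.63 and 10.70 to 11.42, 11.41, 11.48 and 11.46 in WT MEFs (0.76 ± 0.03, adjusted p = 1.06e-17). In dKO MEFs it rose from 10.88, 10.80, 10.86 and 10.80 to 11.46, 11.47, 11.42 and 11.53 (0.64 ± 0.03, adjusted p = 2.66e-16). These were the largest rises among the members in MEFs with AICAR.

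On 1416755_at the WT arrays were at 11.42, 11.41, 11.46 and 11.46 with vehicle and 11.47, 11.46, 11.45 and 11.45 with AICAR, a difference of 0.01 ± 0.03. The dKO arrays were at 11.56, 11.59, 11.54 and 11.61 with vehicle and 11.31, 11.43, 11.27 and 11.44 with AICAR, a fall of 0.21 (adjusted p = 3.34e-06). The interaction of 0.23 ± 0.05 on this probe set was called (adjusted p = 0.00126), and that on 1416756_at was not (0.12 ± 0.05, adjusted p = 0.1). The direction for Dnajb1 in MEFs with AICAR thus depended on the probe set.

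**Figure D4:**
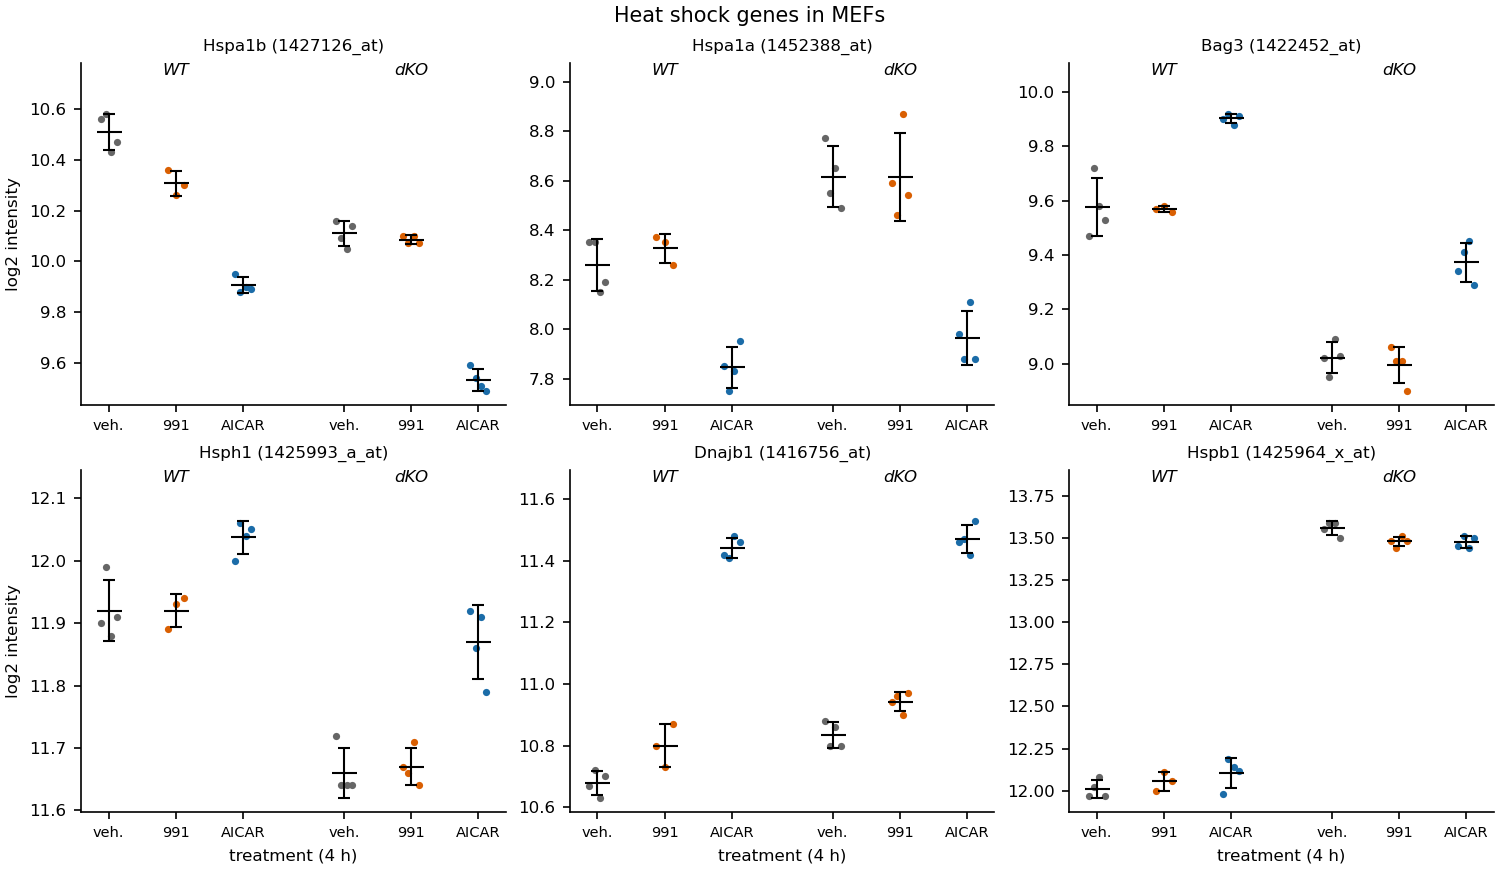
Log2 intensity of 6 probe sets in MEFs by genotype and treatment, with 1 point per array and a black mean with SD (n = 4, and 3 for WT with 991). Each panel has its own axis, which does not start at 0. With AICAR Hspa1b and Hspa1a lie lower and Dnajb1 1416756_at, Bag3 and Hsph1 higher than with vehicle in both genotypes.

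Bag3 rose with AICAR in both genotypes. In WT MEFs it went from 9.47, 9.72, 9.58 and 9.53 to 9.90, 9.92, 9.88 and 9.91 (0.33 ± 0.05, adjusted p = 1.28e-06), and in dKO MEFs from 9.02, 8.95, 9.09 and 9.03 to 9.34, 9.41, 9.45 and 9.29 (0.35 ± 0.05, adjusted p = 2.26e-07). Neither pair of groups overlapped, and the interaction was -0.03 ± 0.07.

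Hsph1 also rose on both probe sets, by less. On 1425993_a_at the WT arrays were at 11.90, 11.99, 11.88 and 11.91 with vehicle and 12.06, 12.05, 12.04 and 12 with AICAR (0.11 ± 0.03, adjusted p = 0.00308). The dKO arrays were at 11.72, 11.64, 11.64 and 11.64 with vehicle and 11.92, 11.86, 11.91 and 11.79 with AICAR (0.21 ± 0.03, adjusted p = 6.27e-07). On 1423566_a_at the rises were 0.17 ± 0.05 and 0.30 ± 0.05. Hsph1 and Hspa1b therefore moved in opposite directions with AICAR in MEFs, whereas with 991 in WT hepatocytes both fell.

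Hspa8 1431182_at fell with AICAR in MEFs, from 9.17, 9.32, 9.20 and 9.15 to 8.49, 8.66, 8.55 and 8.54 in WT (-0.65 ± 0.05, adjusted p = 3.15e-12) and from 9.05, 8.99, 9.0 and 9.05 to 8.40, 8.41, 8.36 and 8.42 in dKO (-0.62 ± 0.05, adjusted p = 4.58e-12). The other Hspa8 probe sets differed by -0.10 to 0.00 in WT and by -0.04 to 0.26 in dKO MEFs. Of these, 1455789_x_at fell in WT (-0.10 ± 0.04, adjusted p = 0.041) and 1420622_a_at rose in dKO cells (0.26 ± 0.10, adjusted p = 0.0356). On 1420622_a_at 1 dKO array with AICAR, at 11.93, stood apart from the other 3 (11.55 to 11.57).

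The mitochondrial chaperonin and Hsp90aa1 changed by 0.17 or less with AICAR in MEFs. Hspe1 1422579_at rose in WT cells (0.17 ± 0.03, adjusted p = 0.000119) and 1450668_s_at in dKO cells (0.10 ± 0.03, adjusted p = 0.0288). Hsp90aa1 1426645_at rose in dKO cells (0.09 ± 0.02, adjusted p = 0.00104). Hspb1 1425964_x_at rose by 0.10 ± 0.03 in WT (adjusted p = 0.019) and fell by 0.08 in dKO cells (adjusted p = 0.048), and the interaction was called (0.19 ± 0.05, adjusted p = 0.00973). In the AICAR interaction in MEFs 2 member probe sets were called higher, those of Dnajb1 and Hspb1 just given, and 0 lower, against 5.67% and 3.7% of all probe sets.

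With 991 the changes in MEFs were smaller. In WT MEFs 1 member probe set was called higher and 5 lower, against 9.23% and 3.8% of all probe sets. The 5 were all 3 of Hspa1b, Hspa8 1455789_x_at and Hsp90aa1 1441827_x_at. Hspa1b 1427126_at was at 10.36, 10.26 and 10.30 with 991, below all 4 vehicle arrays (-0.20 ± 0.04, adjusted p = 0.000921), and the other Hspa1b probe sets differed by -0.22 ± 0.04 and -0.26 ± 0.06. Hspa1a was at 8.37, 8.35 and 8.26 and did not pass the test (0.07 ± 0.08).

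The probe set of Hsp90aa1 called here is a dim one, at 4.90, 5.13, 5.06 and 5.11 with vehicle and 4.72, 4.74 and 4.48 with 991 (-0.40 ± 0.09, adjusted p = 0.00339). The brightest, 1426645_at, was at 13.55, 13.60, 13.56 and 13.55 and then at 13.62, 13.56 and 13.56 (0.02 ± 0.02). The probe set called higher was Dnajb1 1416756_at, at 10.80, 10.73 and 10.87 with 991 (0.11 ± 0.04, adjusted p = 0.0295).

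In dKO MEFs 991 raised Dnajb1 1416755_at from 11.56, 11.59, 11.54 and 11.61 to 11.70, 11.71, 11.70 and 11.73 (0.13 ± 0.03, adjusted p = 0.0279). This was the 1 call higher, with 0 lower, against 0.917% and 0.866% of all probe sets. Hspa1b 1427126_at was at 10.10, 10.07, 10.10 and 10.07 there, a difference of -0.03 ± 0.04. In the 991 interaction 0 members were called higher and 1 lower, against 2.37% and 0.531% of all probe sets. It was Hspa1b 1427127_x_at at -0.25 ± 0.05 (95% interval -0.35 to -0.14, adjusted p = 0.00603), while 1427126_at gave -0.18 ± 0.05 (adjusted p = 0.0647) and 1452318_a_at gave -0.27 ± 0.09 (adjusted p = 0.0854).

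Between the vehicle groups of MEFs, Hspb1 stood out. Its probe set 1425964_x_at was at 11.97, 12.02, 12.08 and 11.97 in WT and at 13.55, 13.59, 13.59 and 13.50 in dKO cells, 1.55 ± 0.03 higher (2.93-fold, adjusted p = 3.32e-26). Probe set 1422943_a_at was 1.44 ± 0.03 higher (2.71-fold). The difference held in all treatments, with dKO group means of 13.47 to 13.56 and WT means of 12.01 to 12.11 on 1425964_x_at. In all, 5 member probe sets were called higher in dKO and 12 lower, against 22.3% and 18.6% of all probe sets.

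Bag3 was lower in dKO MEFs (9.58 ± 0.11 in WT, 9.02 ± 0.06 in dKO, SD, n = 4, a difference of -0.56 ± 0.05 SE, adjusted p = 1.26e-11), and so were both Hsph1 probe sets (differences of -0.26 and -0.30). Hspa1b and Hspa1a went apart. Hspa1b differed by -0.41 to -0.35 in dKO cells, at 10.51 ± 0.07 in WT and 10.11 ± 0.05 in dKO cells on 1427126_at (adjusted p = 8.72e-11), while Hspa1a 1452388_at was higher, at 8.26 ± 0.10 and 8.62 ± 0.12 (0.36 ± 0.07, adjusted p = 0.000156). Fibroblast markers averaged 9.27 to 9.37 in WT and 8.07 to 8.09 in dKO MEFs with vehicle, and the part of this in the members' differences was not tested.

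Across the 6 MEF groups Hspa1b 1427126_at was ordered as WT with vehicle (10.51 ± 0.07, SD), WT with 991 (10.31 ± 0.05), dKO with vehicle (10.11 ± 0.05), dKO with 991 (10.09 ± 0.02), WT with AICAR (9.91 ± 0.03) and dKO with AICAR (9.53 ± 0.04). The dKO groups with vehicle and with 991 did not differ beyond their spread. Hspd1 was the flattest member, with group means of 13.51 to 13.55 in MEFs and 13.26 to 13.35 in hepatocytes. It was called in 0 of the 14 comparisons in limma, with 0 at an unadjusted p under 0.05, and its differences ran from -0.04 to 0.05.

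The genes whose pattern was most like that of Hspa1b were sought among 16694 probe sets above the median in both cell types, by Pearson's r over the 12 group means, centred within each cell type. For Hspa1b 1452318_a_at, the brightest of the pair, they were Kif1b (r = 0.943), Ctps (0.930), Birc2 (0.911), Zfp771 (0.907) and Kank2 (0.876). Kif1b, Ctps and Birc2 were called lower with 991 in WT hepatocytes (-0.67, -0.33 and -0.80), and Zfp771 and Kank2 were not called. All were picked for a pattern whose lowest hepatocyte group was WT with 991, so these calls add nothing to it. With AICAR in WT MEFs these genes differed, in the order of r, by -0.04, -0.07, -0.25, -0.06 and 0.04. The Hspa1b probe sets differed there by -0.60 to -0.57, so none of these genes fell as far. Among the other members r was 0.801 for Hspa1a, 0.859 and 0.847 for Hspa8 1420623_x_at and 1455789_x_at, and 0.728 for Hsph1 1425993_a_at, but -0.327 and -0.333 for Hspb1. For Hspd1 the most alike were Srsf10 (0.922), Pitpnb (0.899), Phb2 (0.888), Mboat7 (0.885) and Nmt2 (0.874), over differences that were small. The groups share vehicle samples and preparations, so these values are descriptions without a test.

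The rest of the chaperone network was described from 9 lists with 91 genes, of which 86 were measured, each by its brightest probe set in the cell type. In WT hepatocytes with 991, 3 were called higher and 5 lower, against 3.05% and 1.96% of 18193 genes. The 5 were Dnajb4 (-0.83 ± 0.13), a J-domain protein related to Dnajb1, Bag2 (-0.50 ± 0.08), an exchange factor, Chordc1 (-0.28 ± 0.06), a partner of HSP90, Dnaja1 (-0.20 ± 0.05) and Hspa4 (-0.17 ± 0.04), an HSP110 relative of Hsph1. The 3 higher were Grpel2 (1.30 ± 0.10, adjusted p = 0.000108), a mitochondrial exchange factor, Hspb8 (0.49 ± 0.07), a small heat shock protein that binds Bag3, and Bag5 (0.26 ± 0.06). List medians lay between -0.10 (HSP90 and its cochaperones) and 0.02 (other small heat shock proteins), beside 0.03 over all genes. None of 8 TRiC subunits or 14 ER chaperones was called, nor were Hsf2, Hsf4, Hsf5 and the factor-binding protein gene Hsbp1. Hsf1, the gene of heat shock factor 1, had no probe set under that single symbol and was not measured.

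With AICAR in WT hepatocytes 4 of the 86 were called higher and 26 lower, against 8.48% and 8.05% of genes. ER chaperones made up 9 of the 26, out of 14 measured (median -0.28, beside 0.04 over all genes), led by Creld2 (-0.82 ± 0.23), Sdf2l1 (-0.72 ± 0.21) and Pdia4 (-0.69 ± 0.18). TRiC, the cytosolic chaperonin, had 4 of 8 lower, with Cct6a at -0.27 ± 0.05. HSP90 cochaperones had 1 of 9 higher and 4 lower, with Fkbp5, a glucocorticoid receptor target, at 0.66 ± 0.07 and Fkbp4 at -0.38 ± 0.07. The heat shock factor gene Hsf2 was at -0.48 ± 0.09 (adjusted p = 0.00383).

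With AICAR in dKO hepatocytes 6 were called higher and 12 lower, against 10.6% and 7.46% of genes. Fkbp5 (0.51 ± 0.07) and Fkbp4 (-0.33 ± 0.07) passed in the same directions as in WT cells, and 5 of 9 HSP90 cochaperones were lower (median -0.21, beside 0.04). None of the 14 ER chaperones was called here (median -0.07). TRiC had 1 of 8 lower, Tcp1 at -0.16 ± 0.03.

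In MEFs more of the network was called. Their tests counted technical replicates, while hepatocyte groups held 2 preparations, so the counts do not compare the cell types. With AICAR in WT cells 37 of the 86 were higher and 7 lower, against 19.1% and 15.1% of genes, and in dKO cells 37 and 11, against 20.1% and 19.6%. ER chaperones had 8 of 14 higher in WT and 9 of 14 in dKO (medians 0.12 and 0.17, beside -0.01 and -0.02 over all genes), with Dnajb9 at 0.71 ± 0.06 and 0.41 ± 0.06. Exchange factors had 5 and 4 of 8 higher, with Bag4 at 0.49 ± 0.04 and 0.57 ± 0.04. TRiC had 4 and 5 of 8 higher, and Cct8 was at 0.12 ± 0.03 and 0.22 ± 0.03. J-domain proteins split, with 6 higher and 3 lower of 15 in WT and 7 and 4 in dKO, where Dnajb5 was at -1.07 ± 0.08.

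The mitochondrial list, which holds partners and neighbours of Hspd1 and Hspe1, had 6 of 13 higher and 1 lower in WT MEFs with AICAR and 6 and 4 in dKO, with Grpel2 at 0.38 ± 0.03 and 0.51 ± 0.03. With 991 in WT MEFs 21 of the 86 were higher and 3 lower, against 12.5% and 4.4% of genes. Those lower included Hsf4 (-0.32 ± 0.09) and Chordc1 (-0.19 ± 0.03), and Hspa4l (0.28 ± 0.04) and Grpel2 (0.19 ± 0.04) were among those higher. Between the vehicle groups 30 were higher and 32 lower in dKO MEFs, against 27.7% and 18.8% of genes, with Hspb6, a small heat shock protein, at 0.77 ± 0.04, Hsf2 at -0.58 ± 0.09 and 6 of 8 TRiC subunits lower.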

How the data were processed

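The authors deposited log2 intensities for each probe set of Affymetrix arrays, computed with RMA and Partek per the submitters' processing notes; versions, the summary of probes and any joint normalization of the cell types are not given in the sources used here. Per the labels the authors left out 1 outlier array per cell type. No array was left out here and none was identical to another. Of 45101 probe sets 64 controls were removed, and 34945 of the other 45037 had 1 gene symbol in the platform annotation, 932 several and 9160 none.

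Differences were fitted with limma 3.58.1 in R 4.3.3 (empirical Bayes with an intensity trend) within each cell type, and p-values were Benjamini-Hochberg adjusted over all 45037 probe sets. MEF arrays were samples (17 residual degrees of freedom). Hepatocyte technical replicates were averaged, with preparation within genotype as a block (4 degrees of freedom) for treatments and 2 for genotype. Numbers of preparations pair treatments within a genotype, since the difference between preparations correlated at 0.358 to 0.783 across treatments; across genotypes it was -0.734 to -0.585. The script was tested on simulated data.

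The members and lists were chosen with earlier results of these data known. Most member probe sets called with an absolute log2 difference of 0.3 or more in a treatment comparison are given with values per sample. So are most genes' brightest probe sets. Hspa1b 1427127_x_at and 1452318_a_at and Hspb1 1422943_a_at are given mainly by their differences. List genes are given by the largest change. Alternatives were quantile normalization, probe sets above the median, 1 probe set per gene, no trend, other blocks, every array as a sample and leave-one-out fits. Python 3.11.15 with pandas 2.3.3 made the tables and matplotlib 3.10.9 the figures.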

Additional observations from a re-analysis of the deposited data

Results flagged for a closer look

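In MEF groups of 4 arrays, 7 of 115 combinations of member probe set and group had 1 array apart from the other 3 by Dixon's test, which chance gives in about 1 group in 20. With AICAR in dKO cells Hspa8 1420622_a_at was at 11.93 in 1 array, with the others at 11.55 to 11.57. Among dKO vehicle arrays Hspb1 1422943_a_at was at 13.48 (others 13.43), Hsph1 1425993_a_at at 11.72 (others 11.64) and Hsp90aa1 1433251_at at 6.05 (others 6.26 to 6.29). With 991 in dKO cells Hspa1b 1452318_a_at was at 11.26 (others 11.42 to 11.44) and Hspa8 1455789_x_at at 13.65 (others 13.80 to 13.83). In WT vehicle arrays Hspd1 1426351_at was at 13.50 (others 13.54).

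The effect of a compound was called different between WT and dKO cells by an interaction test in limma at 4 member probe sets. AICAR gave 1.43 at Hspa8 1431182_at in hepatocytes, 1 of 23 against 1.96% of all probe sets called higher and 0.564% lower. That call was lost without the block for preparation (adjusted p = 0.0982 in limma). In MEFs AICAR gave 0.23 at Dnajb1 1416755_at and 0.19 at Hspb1 1425964_x_at, 2 of 23 against 5.67% higher and 3.7% lower. With 991 in MEFs Hspa1b 1427127_x_at gave -0.25, 1 of 23 against 2.37% of all probe sets called higher and 0.531% lower.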

How the results depend on the processing

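Counts of called members out of 23 probe sets moved by more than 1.5 times as follows. Quantile normalization gave 0 for 991 in dKO MEFs (1 in the report), 2 for the 991 interaction in MEFs (1) and 2 for AICAR in WT hepatocytes (6). Only probe sets at or above the median level gave 2 for 991 in dKO MEFs and 2 for the 991 interaction there. With 1 probe set per gene, out of 10, MEFs gave 2 (991 in WT), 6 (AICAR in WT), 8 (AICAR in dKO), 0 (991 interaction) and 9 (dKO against WT), and hepatocytes gave 3 (991 in WT), 2 (AICAR in WT), 1 (AICAR in dKO) and 0 (AICAR interaction); fewer probe sets were tested. No variance trend gave 0 for 991 in dKO MEFs, 1 for the AICAR interaction in MEFs, 1 for AICAR in WT and 1 in dKO hepatocytes. The technical replicate number as a block moved no count in MEFs by over 1.5 times, and 1 call was lost, Hspa8 1455789_x_at with 991 in WT cells. In hepatocytes no replicate block, and likewise the biological replicate number as a block, gave 0 (991 in WT), 1 (AICAR in WT), 0 (AICAR in dKO) and 0 (AICAR interaction). Crossed replicate numbers as a block, chosen after seeing the data, gave 7 for dKO against WT. In hepatocytes every array as a sample gave 16, 17, 9 and 8 (991 in WT, AICAR in WT, 991 in dKO, AICAR in dKO), 8 and 9 (interactions of 991 and AICAR) and 4 (dKO against WT). The same in preparation 1 alone, added later, where arrays are technical repeats of 1 sample per treatment, gave 16, 18, 10, 12, 6, 6 and 13, and in preparation 2 alone 17, 11, 8, 10, 13, 12 and 13. Leaving out 1 array at a time in MEFs gave 4 to 6 (991 in WT), 10 to 13 (AICAR in WT), 0 to 1 (991 in dKO), 11 to 14 (AICAR in dKO), 1 to 2 (991 interaction), 2 to 6 (AICAR interaction, 6 without dKO AICAR replicate 4, 4 without dKO vehicle replicate 4 or WT vehicle replicate 3) and 14 to 18 (dKO against WT). Leaving out 1 preparation gave 0 to 8 (991 in WT, 0 without WT preparation 2), 2 to 5 (AICAR in WT, 2 without WT preparation 1), 0 (991 in dKO), 0 to 3 (AICAR in dKO, 0 without dKO preparation 1), 0 to 1 (991 interaction), 0 to 2 (AICAR interaction, 2 without WT preparation 1, 0 without WT preparation 2 or dKO preparation 1) and 0 (dKO against WT). Calls over all 45037 probe sets moved as well. For 991 in WT hepatocytes they were 1131 higher and 713 lower in the report, and 286 and 91 without a block. Every array as a sample, which counts technical repeats as samples, gave 6607 and 5389. For AICAR in WT hepatocytes quantile normalization gave 3816 and 4355, near the 3777 and 4441 in the report. The cause was not tested. Over single called differences, 695 alternative values kept the call and 137 lost it, and of values from fits added later 53 kept it and 1 lost it. None reversed, but fits with no trend or with fewer probe sets leave a difference as it was. So do other blocks in hepatocytes, and none of these could reverse a sign. Of the 695, 395 came from leaving out 1 array in MEFs. In hepatocytes the fit without a block kept 1 call and lost 17, and every array as a sample kept 18. The number of preparations, 2 per genotype, limits the precision in hepatocytes.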
